A study of Mus musculus with 6 samples.

Results

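The interferon regulatory factor family was followed in primary microglia (PM) through its 8 listed genes, Irf1, Irf2, Irf3, Irf4, Irf5, Irf7, Irf8 and Irf9, chosen by symbol from the 24411 genes of the count tables. PM were collected by shaking mixed glial cultures that had been made from pooled brains of neonatal ICR mice, so no library belongs to a single animal. In one group, 3 libraries came from PM given 10 μM GSK-J4, an inhibitor of the H3K27 demethylase JMJD3, for 4-h. In the other, 3 libraries came from PM that received the same GSK-J4 together with 10 ng/ml LPS, the bacterial ligand of TLR4, for 4-h. All cells had thus been exposed to GSK-J4, and each difference below is between libraries with and without LPS in its presence. The study calls the replicates of a group independent biological samples and does not say which animals or cultures each came from, so the p values describe the spread between these libraries.

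IRF proteins bind DNA through a shared N-terminal domain that reads repeats of the bases GAAA. IRF3, IRF5 and IRF7 lie dormant in the cytoplasm and are activated by phosphorylation below pattern recognition receptors, IRF3 through the adaptor TRIF and the kinase TBK1, IRF5 and IRF7 through MyD88. IRF9 is the DNA-binding subunit of the complex that type I interferon forms, while IRF1 is an activator made anew on stimulation and IRF2 competes with it for the same sites. IRF8 is a lineage factor of microglia that acts beside PU.1, and its relative IRF4, known from lymphocytes and alternatively activated macrophages, has been described as a target of JMJD3.

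Between PM with and without LPS, all in the presence of GSK-J4, these genes differed in both directions. Irf1 rose 9.66-fold, Irf7 rose 2.58-fold, Irf4 fell 3.87-fold, and the remaining 5 genes did not pass the test. A gene was called where its p from edgeR's quasi-likelihood test, after Benjamini-Hochberg adjustment, did not exceed 0.01 and its log2 fold change reached 1.5, up or down. All 8 genes passed the filter on low counts, Irf4 only through the GSK-J4 libraries. Of these, 2 were called, Irf1 upward and Irf4 downward, against 3.76% of the 10133 genes tested. By the adjusted p alone, 3 passed, with Irf7 added, where 13.9% of all genes tested did.

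The libraries held between 2597505 and 3472716 fragments on genes. The ribosomal precursor Rn45s took 25.6% ± 5.88 (SD, n = 3) of these without LPS and 47.1% ± 1.15 with it, which left fewer fragments for all other genes in the latter. Levels are therefore given as CPM, fragments scaled to library size, after edgeR's TMM scaling, under which 3 fragments equal 0.673 to 1.24 CPM, counting error only. All 9 microglial markers were detected, the lowest being Tmem119, at 5.01 ± 2.01 CPM (SD, n = 3) without LPS and 2.66 ± 1.10 CPM with it. Their summed level ran from 2905 to 2997 CPM in GSK-J4 and from 2272 to 2345 CPM in LPS + GSK-J4. Each had a negative log2 fold change, and 2 of 9 passed at the adjusted p, Cx3cr1 (-0.48, adjusted p = 0.00354) and Csf1r (-0.46, adjusted p = 0.0045). Of all genes tested, 5.46% were lower at it. In DESeq2 3 of the 9 passed, and in edgeR 7 had an unadjusted p under 0.05. For 7 the groups did not overlap, beside 18.4% of all genes tested in that direction. The summed markers of other cells were higher with LPS, for astrocytes from 53.9 to 59.4 CPM against 130.7 to 158.6 CPM, for the oligodendrocyte lineage from 119.9 to 146.8 CPM against 226.7 to 253.3 CPM, and for neurons from 15.8 to 22.4 CPM against 35.1 to 44.5 CPM. Fibroblast and vascular markers ran from 49.8 to 128 CPM and from 86.6 to 256 CPM. Of these lists, 3 of 7 tested astrocyte genes, 3 of 5 oligodendrocyte genes, 2 of 3 neuronal genes and 0 of 5 fibroblast genes rose at the adjusted p (0 by DESeq2 and 1 at an unadjusted p under 0.05 for the last), beside 8.42% of all genes tested. By DESeq2, 1 neuronal gene passed at the adjusted p. Lymphoid and plasmacytoid markers, relevant to Irf4 and Irf7, summed to at most 0.781 CPM in any library. The part of these shifts in the results on the Irf genes was not tested, and in such bulk RNA fewer cells of a type and less RNA per cell cannot be told apart.

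To show the DNA in front of the genes the results turn on, the 250 bases before the RefSeq start are given for Irf1 and Irf4, which were called, for Irf2, the competitor of IRF1, and for Irf8, the relative of Irf4. All are on the plus strand of GRCm38.p6 (mm10), Irf1 at chr11:53769764-53770013, Irf2 at chr8:46739495-46739744, Irf4 at chr13:30748983-30749232 and Irf8 at chr8:120736108-120736357. Capitals mark matches, on either strand, to the interferon-stimulated response element (GAAA, any 2 bases, GAAA), the gamma-activated site (TTCNNNGAA), the NF-kB consensus, the Ets and IRF composite element (GGAA, any 2 bases, GAAA) and the AP-1 site (TGANTCA). The NF-kB consensus is GGGRNWYYCC, where R is A or G, W is A or T, Y is C or T and N is any base. It replaced a narrower spelling after these windows had been read, so its matches are no independent support.
Irf1: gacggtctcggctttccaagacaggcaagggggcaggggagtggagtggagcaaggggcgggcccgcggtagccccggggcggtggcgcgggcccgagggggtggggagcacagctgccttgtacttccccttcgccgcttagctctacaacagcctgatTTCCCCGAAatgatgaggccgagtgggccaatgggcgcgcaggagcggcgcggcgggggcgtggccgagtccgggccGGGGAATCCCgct
Irf2: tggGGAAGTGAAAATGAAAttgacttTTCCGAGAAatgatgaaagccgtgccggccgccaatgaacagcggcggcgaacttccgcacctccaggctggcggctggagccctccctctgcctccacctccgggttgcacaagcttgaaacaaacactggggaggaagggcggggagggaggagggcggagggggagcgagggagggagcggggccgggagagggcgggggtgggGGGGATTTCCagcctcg
Irf4: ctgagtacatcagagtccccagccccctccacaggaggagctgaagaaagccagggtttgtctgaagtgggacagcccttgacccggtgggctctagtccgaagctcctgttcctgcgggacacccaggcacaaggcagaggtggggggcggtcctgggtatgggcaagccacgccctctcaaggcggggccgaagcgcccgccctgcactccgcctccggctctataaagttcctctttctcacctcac
Irf8: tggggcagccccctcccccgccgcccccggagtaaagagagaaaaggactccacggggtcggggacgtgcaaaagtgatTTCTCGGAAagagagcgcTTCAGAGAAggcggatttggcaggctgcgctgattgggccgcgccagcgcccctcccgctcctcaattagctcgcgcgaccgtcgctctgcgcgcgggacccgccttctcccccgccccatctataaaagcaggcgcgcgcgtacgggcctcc
The Irf1 window held a gamma-activated site from 90 to 82 bases before the start and an NF-kB match from 13 to 4 bases before it, which reads as the consensus on both strands. The Irf2 window held a gamma-activated site (224 to 216 bases before), an NF-kB match (17 to 8 bases before) and, overlapping each other, a composite element (247 to 238) and an interferon-stimulated response element (241 to 232). In the Irf8 window 2 gamma-activated sites stood at 171 to 163 and 153 to 145 bases before the start. The Irf4 window held none of these letters, and neither did those of Irf3, Irf5, Irf7 and Irf9 or the alternative windows of Irf1, Irf8 and Irf9. All windows of Irf9 and the alternative windows of Irf1 and Irf8 lie inside the genes as GENCODE places them. The DNA before the GENCODE start of Irf9 was therefore not searched. Of 32851 such windows in the RefSeq table, 7.02% held a gamma-activated site, 3.9% an NF-kB match, 2.98% a response element, 2.3% a composite element and 6.75% an AP-1 site. These matches are descriptions of the sequence, and binding was not measured in these libraries.

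Irf1 (ENSMUSG00000018899.16, mm10 chromosome 11, 53770014 to 53778374), the activator that is made anew on stimulation, had 54.5, 46.5 and 37.8 CPM in GSK-J4 replicates 1, 2 and 3 and 471, 429 and 453 CPM in LPS + GSK-J4 replicates 1, 2 and 3. The lowest library with LPS lay far above the highest without it, with counts of 1097 to 1206 against 103 to 231. The log2 fold change was 3.27 (standard error 0.14, adjusted p = 7.11e-11, edgeR), a 9.66-fold increase with a 95% interval of 7.86 to 11.9. By fold change, Irf1 ranked 46 of the 10133 genes. The matches in its window, a gamma-activated site and an NF-kB site, are those shown above, with the limit given there on the NF-kB letters. The plot of levels by library sets this shift beside the other genes.

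**Figure D1:**
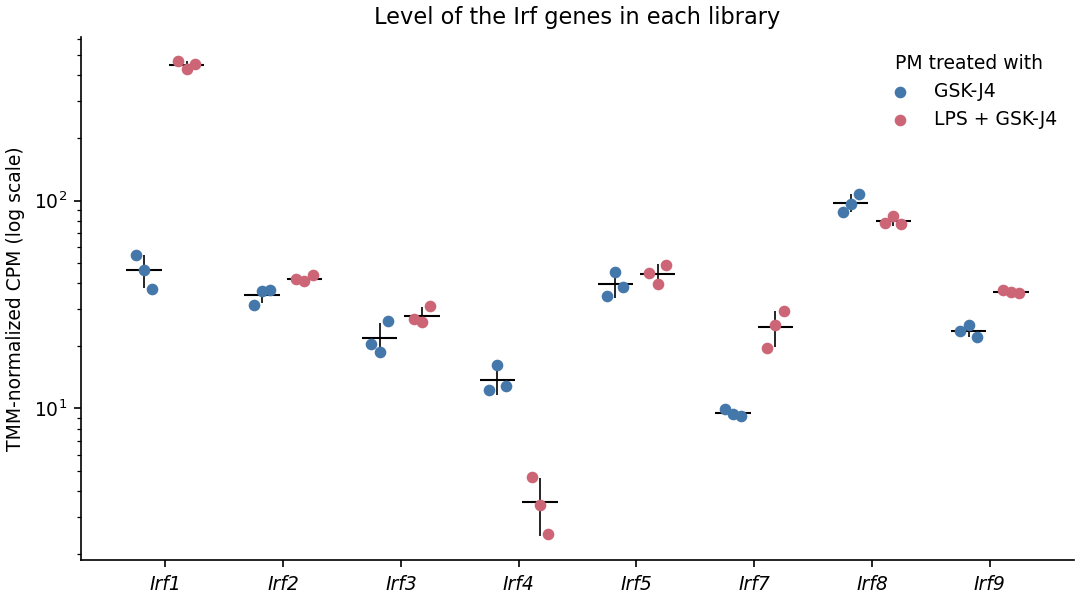
Level of each Irf gene in the 6 libraries, as TMM-normalized CPM on a log axis; points are libraries, horizontal lines group means and vertical lines 1 SD (n = 3). Irf1 stood at 429 CPM or more in the LPS + GSK-J4 libraries and at 54.5 CPM or less in the GSK-J4 libraries, and Irf4 at 4.68 CPM or less against 12.3 CPM or more.

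Irf2 (chromosome 8, 46739732 to 46847458), the competitor of IRF1 at its sites, had 31.6, 36.6 and 37.0 CPM in GSK-J4 against 41.8, 40.8 and 43.8 CPM in LPS + GSK-J4. The groups did not overlap, but the log2 fold change, 0.27 (standard error 0.15, adjusted p = 0.232), did not pass the test, and its 95% interval ran from a 0.962-fold to a 1.51-fold level. Per kb of the longest coding transcript, the ratio of Irf1 to Irf2 was 2.01, 1.48 and 1.19 in GSK-J4 and 13.2, 12.3 and 12.1 in LPS + GSK-J4. Its mean was 1.56 ± 0.417 without LPS and 12.5 ± 0.579 with it (SD, n = 3), with a 2-sided exact permutation p of 0.1, the smallest that 3 libraries against 3 allow. The co-repressors named for binding IRF2 were Irf2bp2, at 182 ± 34.8 and 123 ± 18.1 CPM (log2 fold change -0.56, adjusted p = 0.0125), Irf2bpl, at 19.6 ± 3.34 and 16.7 ± 1.63 CPM, and Irf2bp1. None of the 3 was called or passed at the adjusted p in edgeR, while 1 was lower at an unadjusted p under 0.05 and 1 passed at the adjusted p in DESeq2.

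Of the 3 genes whose proteins are activated by phosphorylation, Irf7 passed the adjusted p and Irf3 and Irf5 did not. Irf7 (ENSMUSG00000025498.15, chromosome 7, 141262706 to 141266481), the amplifier of type I interferon, had 9.91, 9.43 and 9.17 CPM in GSK-J4 against 19.5, 25.2 and 29.3 CPM in LPS + GSK-J4. Every library with LPS was above every library without it, and the 3 LPS libraries were further apart (coefficient of variation 20.0%) than the 3 others (3.97%). Irf7 rose 2.58-fold (95% interval 1.88 to 3.54, log2 fold change 1.37, standard error 0.22, adjusted p = 0.000225), which passed the adjusted p and stayed under the limit on fold change. Without LPS + GSK-J4 replicate 1, the lowest of its group, the log2 fold change was 1.51 and Irf7 was called. Its counts were low, from 25 to 42 in GSK-J4 and from 50 to 71 in LPS + GSK-J4. Counting error alone can be wider than the smaller coefficient of variation, and the difference between the coefficients was not tested.

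Irf3 (chromosome 7, 44997648 to 45002848), which starts interferon beta transcription below TLR4, had 20.5, 18.6 and 26.4 CPM in GSK-J4 against 26.9, 25.9 and 31.0 CPM in LPS + GSK-J4. GSK-J4 replicate 3 lay within the range of the LPS libraries, and the log2 fold change, 0.37 (standard error 0.19, adjusted p = 0.179), did not pass. Its 95% interval allowed a 0.978-fold to 1.71-fold level. Irf5 (chromosome 6, 29526625 to 29541871), a factor for inflammatory cytokine genes, had 34.7, 45.6 and 38.5 CPM in GSK-J4 against 44.9, 39.7 and 49.1 CPM in LPS + GSK-J4. These ranges overlapped as well, and the log2 fold change was 0.17 (standard error 0.16, adjusted p = 0.507) with a 95% interval of 0.886-fold to 1.42-fold. A doubling of either gene lay outside its interval.

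Irf9 (chromosome 14, 55603571 to 55610030), the DNA-binding subunit of the interferon-induced complex, had 23.6, 25.1 and 22.0 CPM in GSK-J4 against 37.1, 36.3 and 35.9 CPM in LPS + GSK-J4. The LPS libraries lay close together (coefficient of variation 1.63%) and above all others. At 87 to 95 fragments each, counting error alone can be wider than that spread. The fold was 1.54 (95% interval 1.21 to 1.95, log2 fold change 0.62, standard error 0.16), and the adjusted p of 0.0112 in edgeR missed the limit narrowly. Without LPS + GSK-J4 replicate 3 it passed (adjusted p = 0.00848), and over all settings it ran from 0.00198 to 0.059. Irf9 overlaps Rnf31 on the same strand, and STAR leaves out fragments that fall on both genes. Stat2, the partner of IRF9, was at 21.8 ± 2.53 CPM in GSK-J4 against 29.8 ± 6.35 CPM in LPS + GSK-J4 (log2 fold change 0.45, adjusted p = 0.113), named here after its values were seen.

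Irf4 (ENSMUSG00000021356.10, chromosome 13, 30749226 to 30766976) moved the other way. It had 12.3, 16.2 and 12.8 CPM in GSK-J4 against 4.68, 3.43 and 2.48 CPM in LPS + GSK-J4. No libraries of the groups overlapped, and the highest LPS library was well under the lowest without LPS. In fragments these were 52, 72 and 35 against 12, 9 and 6, the latter still above the level of 3 counts. Irf4 fell by 1.95 on the log2 scale (standard error 0.30, adjusted p = 0.000203), a 3.87-fold decrease with a 95% interval of 2.47 to 6.05. Only 0.809% of all genes tested were called lower, and Irf4 ranked 31 from the bottom by fold change. Irf4 passed the filter on low counts only through the GSK-J4 libraries, so its call and rank are no independent support. With at least 10 counts in every library it was not tested. With so few fragments the size of the decrease is loosely fixed, and the interval reaches beyond the limit on fold change toward smaller decreases.

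Irf8 (ENSMUSG00000041515.10, chromosome 8, 120736358 to 120756694), the lineage factor, had 88.5, 96.1 and 108 CPM in GSK-J4 against 77.7, 84.7 and 77.2 CPM in LPS + GSK-J4. The LPS libraries were all lower, yet the log2 fold change, -0.28 (standard error 0.13, adjusted p = 0.132), did not pass, with a 95% interval of the fold from 0.68 to 0.995. The microglial markers, given above, had log2 fold changes from -0.95 to -0.21. Relative to their summed level (CPM per 1000 CPM of markers), Irf8 stood at 32.9 ± 3.00 (SD, n = 3) without LPS and 34.8 ± 2.25 with it, where the groups overlapped and the sign turned (log2 difference 0.08). On that scale, chosen after the data were seen, Irf4 remained lower, at 4.64 ± 0.65 and 1.54 ± 0.501, and Irf1 higher, at 15.7 ± 3.03 and 196 ± 9.47. The summed markers were lower with LPS (2297 ± 41.3 against 2959 ± 47.7 CPM), so division by them moved every Irf gene upward by a similar amount. The turned sign of Irf8 is therefore nothing particular to that gene. Irf3 and Irf5, whose groups overlapped in CPM, did not overlap on that scale and were higher with LPS, after the same shift. Irf3 was at 7.39 ± 1.36 and 12.2 ± 0.934, and Irf5 at 13.4 ± 1.67 and 19.4 ± 1.77. PU.1, the partner of IRF8 and IRF4 encoded by Spi1, was at 167 ± 22.3 and 144 ± 12.9 CPM (log2 fold change -0.21, adjusted p = 0.285).

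**Figure D2:**
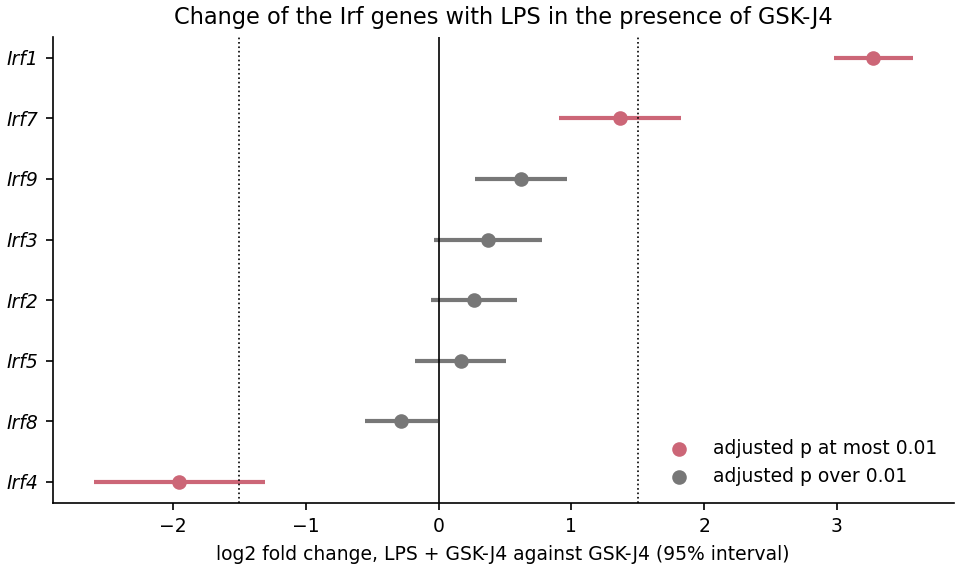
Log2 fold change of each Irf gene, LPS + GSK-J4 against GSK-J4, with its 95% interval from the edgeR fit (3 libraries per group); dotted lines mark 1.5 in either direction. Irf1 (3.27) and Irf4 (-1.95) lay beyond the dotted lines, Irf7 (1.37) just inside, and the intervals of Irf2, Irf3 and Irf5 crossed 0.

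Over the family, the groups did not overlap for 6 of 8 genes, beside 38.2% of all genes tested. They were apart upward for 4 genes (Irf1, Irf2, Irf7 and Irf9) and downward for 2 (Irf4 and Irf8), while 19.8 and 18.4% of all genes tested did not overlap in these directions. The median log2 fold change of the 8 genes was 0.32, beside -0.00064 over all genes tested. The spread between replicates, as a coefficient of variation of CPM, ran from 3.97% (Irf7) to 18.5% (Irf3) in GSK-J4 and from 1.63% (Irf9) to 31.3% (Irf4) in LPS + GSK-J4. Each value rests on 3 libraries and includes counting error.

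Levels of different genes were set side by side per kb of the longest coding transcript in the GENCODE annotation. In GSK-J4 the order was Irf8 (34.2 ± 3.42 CPM per kb, SD, n = 3), Irf1 (21.6 ± 3.92), Irf5 (17.7 ± 2.46), Irf2 (14.0 ± 1.20), Irf3 (10.8 ± 1.99), Irf9 (7.97 ± 0.531), Irf7 (4.25 ± 0.168) and Irf4 (2.89 ± 0.442). Neighbours whose libraries overlapped were Irf1 with Irf5 and Irf2 with Irf3. In LPS + GSK-J4 the order began with Irf1 (211 ± 9.91 CPM per kb), followed at a wide gap by Irf8 (28.1 ± 1.48), Irf5 (19.9 ± 2.11), Irf2 (16.9 ± 0.602), Irf3 (13.8 ± 1.31), Irf9 (12.3 ± 0.2), Irf7 (11.0 ± 2.20) and Irf4 (0.741 ± 0.232). There, Irf9 and Irf7 overlapped. Irf1 and Irf8 thus exchanged places, and the other genes kept their order. With the length of all exons in place of the longest transcript, Irf1 came after Irf5 and Irf2 in GSK-J4, and Irf2 stood before Irf5 in LPS + GSK-J4, so the ranks between these genes depend on the length used.

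As a share of the summed CPM per kb of the 8 genes, Irf1 made up 23.2, 18.8 and 15.4% in GSK-J4 and 68.9, 66.5 and 66.3% in LPS + GSK-J4. Irf8 went from 30.1% ± 2.498 (SD, n = 3) to 8.96% ± 0.788, and Irf4 from 2.54% ± 0.338 to 0.236% ± 0.0724. The share of Irf7 was 3.75% ± 0.25 and 3.52% ± 0.711, as its level and the sum were both higher with LPS. Without Irf1, the summed CPM of the other 7 genes was 221, 248 and 254 in GSK-J4 and 253, 256 and 269 in LPS + GSK-J4, and the ranges overlapped. The sum of all 8 was between 276 and 294 CPM and between 685 and 723 CPM, so that Irf1 accounted for most of the difference in these sums.

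**Figure D3:**
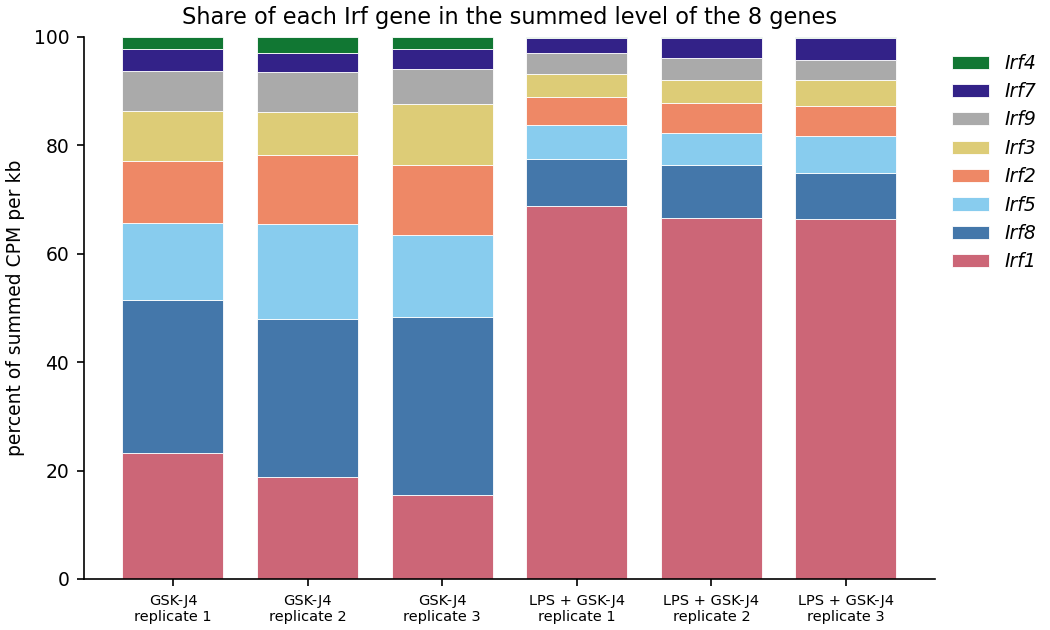
Stacked bars of the share of each Irf gene in the summed CPM per kb of the 8 genes (percent, from 0 to 100), 1 bar per library. Irf1 filled 15.4 to 23.2% of the bars in GSK-J4 and 66.3 to 68.9% in LPS + GSK-J4, and Irf8 was the largest part before LPS.

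The genes whose level over the 6 libraries was most like that of Irf1 were Ccrl2, an atypical chemokine receptor, Tnfaip3, a brake on NF-kB, and the chemokine Cxcl2, each with a Pearson r of 1.00 on log2 CPM. In all, 83 tested genes reached an r of 0.99, and the 6 points fall into the 2 groups of libraries, so the value is a description without a test.

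Of the 12 listed adaptors and kinases that lead to IRF activation, 11 had enough fragments to be tested. Ticam2, which encodes the adaptor TRAM that links TLR4 to TRIF, had 97.0, 83.5 and 66.4 CPM in GSK-J4 against 26.9, 22.1 and 24.0 CPM in LPS + GSK-J4, without overlap. Its log2 fold change was -1.76 (standard error 0.17, adjusted p = 1.65e-06), the only call among the 11 tested, beside 3.76% of all genes tested. Ticam2 overlaps Tmed7 on the same strand, and fragments on both are not counted. Ticam1, the gene of TRIF, rose from 31.7 ± 5.97 to 52.5 ± 7.47 CPM (log2 fold change 0.74, adjusted p = 0.00547), and Myd88 from 21.5 ± 1.56 to 37.7 ± 3.15 CPM (0.80, adjusted p = 0.00239), both below the limit on fold change. Traf6 was at 67.7 ± 7.05 and 49.9 ± 6.47 CPM (adjusted p = 0.0405) and the IRF3 kinase gene Ikbke at 55.9 ± 8.63 and 57.1 ± 6.39 CPM (adjusted p = 0.944). In all, 2 of the 11 rose and 1 fell at the adjusted p in edgeR, beside 8.42 and 5.46% of all genes tested. In DESeq2, 2 of the listed genes passed at the adjusted p. The median of the list was -0.13.

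Type I interferon and chemokine genes listed as targets of IRF3 and IRF7 were scarce without LPS. Ifnb1, interferon beta, averaged 0.0786 CPM without LPS, under the level of 3 counts, and stood at 88.3 ± 9.80 CPM in LPS + GSK-J4. Cxcl10 was at 0.89 ± 0.806 and 67.1 ± 11.4 CPM, and Ccl5 at 6.61 ± 2.78 and 114 ± 17.3 CPM (log2 fold change 4.03, adjusted p = 1.67e-09). These 3 of the 7 listed genes were tested and called upward, where 2.95% of all genes tested were. Ifnb1 and Cxcl10 passed the filter on low counts only through the LPS libraries, so their calls are no independent support, and with at least 10 counts in every library 1 gene was called. The 4 interferon alpha genes listed had at most 1 fragment in any library and were not tested, so a change in them can be neither shown nor excluded here. Fragments that map to more than 1 place are not counted.

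Of the 12 genes listed as targets of the IRF9 complex, all were tested and 8 were called upward, with a median log2 fold change of 3.68. The study describes ISG15 as dependent on IRF3. Which factor acted on the listed genes was not tested. Those with the largest change were Rsad2 (log2 fold change 6.59), Ifit1 (6.58), Oasl1 (5.98) and Isg15 (5.90). The levels of Oas1a, at 13.5 ± 2.49 and 17.9 ± 3.92 CPM (adjusted p = 0.237), and Oas2, at 6.35 ± 0.872 and 7.93 ± 1.85 CPM (adjusted p = 0.478), did not pass. Upward calls were made for 2.95% of all genes tested. Some of the called genes, Ifit1 and Oasl1 among them, had so few fragments without LPS that they passed the filter through the LPS libraries, and with at least 10 counts in every library 4 were called.

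Of 11 listed targets of IRF1, 9 were tested, 2 were called upward and 3 passed the adjusted p, beside 2.95 and 8.42% of all genes tested. In DESeq2, 2 of the listed genes passed the adjusted p. With at least 10 counts in every library 0 were called upward, as neither called gene was then tested, and without a filter 4 were. Gbp2, a guanylate-binding GTPase, rose from 4.59 ± 2.57 to 48.2 ± 7.997 CPM (log2 fold change 3.31, adjusted p = 2.49e-07). Il12b, a subunit of IL-12, averaged 0.0786 CPM without LPS and 9.53 ± 2.54 CPM with it. Gbp2 had 31, 19 and 6 fragments in GSK-J4 replicates 1, 2 and 3. Gbp2 and Il12b passed the filter on low counts only through the LPS libraries, so their calls are no independent support. Il15 rose from 7.06 ± 0.977 to 15.3 ± 4.40 CPM (1.11, adjusted p = 0.00654). The peptide transporter gene Tap1 was at 35.1 ± 1.98 and 36.4 ± 7.65 CPM (log2 fold change 0.06, adjusted p = 0.858) and Nlrc5, the activator of MHC class I genes, at 27.9 ± 3.47 and 35.5 ± 4.97 CPM (0.36, adjusted p = 0.161). The median of the tested genes was 0.30.

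Among 8 genes linked to IRF8 in microglia, the purinergic receptor gene P2rx4 fell from 154 ± 5.06 to 101 ± 5.30 CPM (log2 fold change -0.60, adjusted p = 0.00145) and the fractalkine receptor gene Cx3cr1 from 362 ± 4.03 to 260 ± 12.2 CPM. Tlr2 rose from 371 ± 79.2 to 675 ± 44.7 CPM (0.86, adjusted p = 0.000238) and Il1b from 10.9 ± 4.37 to 182 ± 10.7 CPM, the only call. Tlr4 (56.9 ± 10.6 and 37.9 ± 10.5 CPM) and Ctss (1091 ± 125 and 826 ± 127 CPM) had adjusted p = 0.0394 and 0.0307. In all, 2 of the 8 rose and 2 fell at the adjusted p, shares to be read against 8.42 and 5.46% of all genes tested. The call upward of 1 of the 8 stands beside 2.95% of all genes tested. Cx3cr1, P2ry12 and Aif1 of this list are also among the microglial markers.

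Genes of alternative activation linked to IRF4 were scarce. Chil3 and Retnla had no fragments in any library, which allows up to 3 counts each (0.673 to 1.24 CPM), and Ccl17 was at a mean of 0.268 CPM or less. The arginase gene Arg1 was at 14.99 ± 0.704 and 24.6 ± 7.21 CPM (log2 fold change 0.72, adjusted p = 0.0255) and the mannose receptor gene Mrc1 at 56.1 ± 7.50 and 38.0 ± 6.57 CPM (-0.57, adjusted p = 0.0213). Neither passed the adjusted p in edgeR or in DESeq2, and both had an unadjusted p under 0.05, in opposite directions.

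Of the factors that bind beside IRF4 and IRF8, the AP-1 gene Junb rose from 283 ± 56.1 to 909 ± 144 CPM (log2 fold change 1.69, adjusted p = 4.35e-07) and was called, and Jund rose from 54.2 ± 20.6 to 104 ± 24.6 CPM (0.97, adjusted p = 0.0043). Jun was at 526 ± 138 and 738 ± 95.1 CPM (adjusted p = 0.0304). Of the 4 tested, 1 was called upward and 2 rose at the adjusted p, beside 2.95 and 8.42% of all genes tested. Batf, Batf2, Batf3 and Spib had too few fragments to be tested, with means of at most 3.06 CPM. The type I interferon receptor list held no gene past either limit in edgeR or DESeq2, and 1 of its 5 genes was higher at an unadjusted p under 0.05. Its most abundant genes were Ifnar1, at 191 ± 8.31 and 201 ± 5.97 CPM (log2 fold change 0.07, adjusted p = 0.683), and Jak1, at 131 ± 8.52 and 111 ± 6.90 CPM (-0.24, adjusted p = 0.173).

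**Figure D4:**
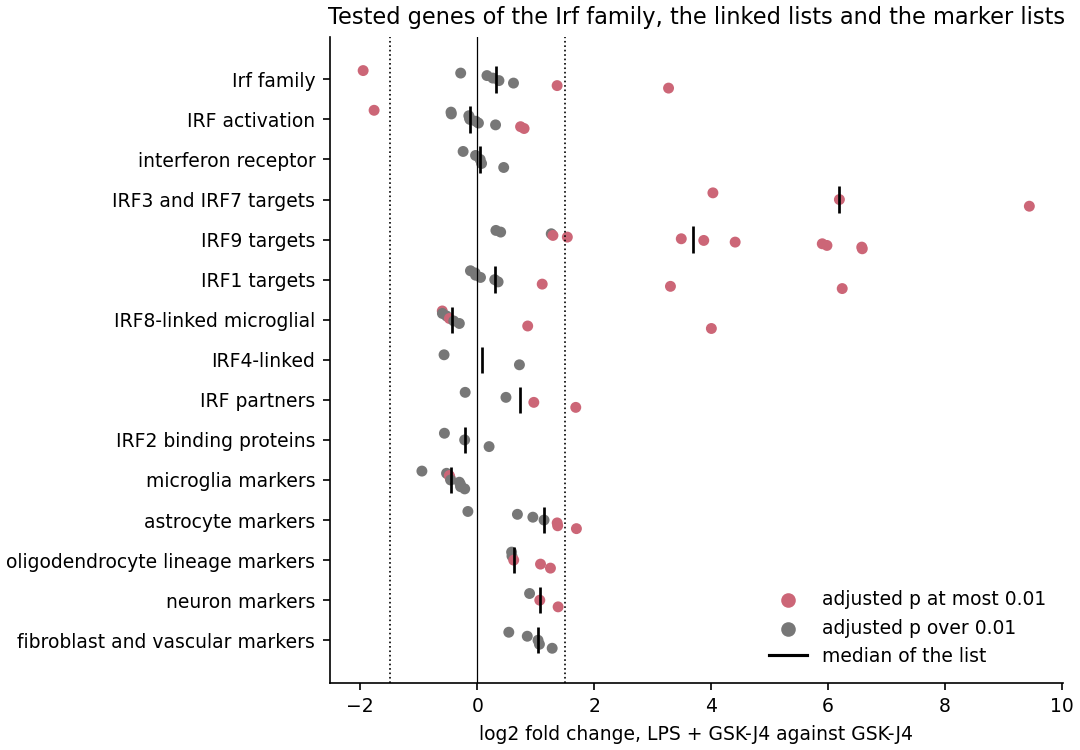
Log2 fold change (LPS + GSK-J4 against GSK-J4) of every tested gene of the Irf family, of 9 linked lists and of 5 marker lists; each point is a gene, vertical bars are medians and dotted lines mark 1.5 in either direction. The medians were 3.68 for genes listed as targets of the IRF9 complex and 0.30 for those of IRF1. They were -0.44 for IRF8-linked genes and -0.46 for microglial markers, and the log2 fold changes of the first 3 lists overlapped. Cx3cr1, P2ry12 and Aif1 belong to both the IRF8-linked genes and the microglial markers.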

How the data were processed

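The authors trimmed the reads with Trimmomatic 0.33, aligned them to mm10 with STAR 2.5.1 and deposited, for every library, the raw counts of fragments on each gene. The gene annotation is not given in the sources used here. Of the 3 deposited count columns the reverse-strand one was used, as the kit is directional; the antisense column held at most 26 fragments for any Irf gene over all libraries. The 4 summary lines that name no gene were left out; between 59.3 and 62.6% of uniquely mapped fragments fell on no annotated exon of that strand. STAR counts only fragments that map to 1 place and fall on 1 gene.

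Counts were tested in R 4.3.3 with edgeR 4.0.16 (TMM, filterByExpr at a count of 10 and a total of 15, robust quasi-likelihood test without covariates), and p values were adjusted by Benjamini-Hochberg over 10133 genes. Standard errors and 95% intervals follow from the F statistic. DESeq2 1.42.0, the tool of the study, was an alternative, beside unstranded counts, other scaling, filters and thresholds, a replicate block, removal of ribosomal features and of each library. Positions and lengths are from GENCODE on mm10, and promoter windows from RefSeq on GRCm38.p6, where all 8 genes matched. The NF-kB consensus replaced a narrower spelling after the windows had been read.

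The Irf genes and the linked lists were chosen with earlier results of these data known. In each linked list the genes named are up to 4 with the largest change among those passing the adjusted p and up to 2 with the highest level among those that did not pass. Others, such as Spi1 under Irf8, stand beside a result they touch. Untreated PM, PM with LPS alone and BV-2 cells were not analysed here.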

Additional observations from a re-analysis of the deposited data

How the results depend on the processing

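All 8 Irf genes kept their direction in every planned setting in which they were tested. The log2 fold change of Irf1 ran from 3.16 to 3.40, that of Irf4 from -2.21 to -1.76 and that of Irf7 from 1.23 to 1.51. With 1 library left out, 1 to 2 Irf genes were called upward, and Irf7 (1.23 to 1.51) was called only without LPS + GSK-J4 replicate 1. With the limits relaxed to 0.05 for the adjusted p and 1 for the log2 fold change, 2 were called upward. With at least 10 counts in every library Irf4 was not tested, so 0 Irf genes were called downward or lower at the adjusted p in edgeR; fewer genes of the linked lists were tested as well, and the calls upward fell to 1 for targets of IRF3 and IRF7, 4 for those of IRF9 and 0 for those of IRF1. Without a filter, 4 targets of IRF1 were called. Replicate numbers do not pair the libraries by any label, and deviations from the group means correlated across genes at r = -0.0102, 0.117 and 0.295 for the same number. With the replicate number as a block, Irf1 had a log2 fold change of 3.28, Irf7 of 1.35 and Irf4 of -1.94, Irf9 passed the adjusted p (0.00198), and no other call on an Irf gene changed. Relative to the summed microglial markers, chosen after the data were seen and without a test, the log2 differences were 3.66 for Irf1, 0.63 for Irf2, 0.73 for Irf3, -1.63 for Irf4, 0.54 for Irf5, 1.72 for Irf7 and 0.99 for Irf9, and that of Irf8 turned from negative to 0.0813. The summed markers were lower with LPS, which moved all 8 genes upward on that scale. The median over all genes moved from -0.00064 to 0.12 without a filter and 0.13 in DESeq2. Depth limits mainly Irf4 and Irf7, at 6 to 72 fragments per library.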
